A study of Homo sapiens with 8 samples.

Results

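A group of 9 genes tied to p53 and to growth arrest was followed in HuH7 cells after simulated ischemia and reperfusion. They were taken by symbol from the 15767 genes of the count table, and all 9 of 9 were found and were counted deeply enough to be tested. The members were MDM2, CDKN1A, CDKN1B, BTG2, GADD45A, GADD45B, TP53INP1, PLK2 and ZMAT3. HuH7 is a human hepatoma line that is known to carry a mutant p53, while its genotype is labelled wildtype, so no group was engineered. Cells of both groups were held for 6 h at 1% oxygen without glucose and then returned to oxygen and glucose for 6 h (oxygen-glucose deprivation and reperfusion, OGD/R). During reperfusion 4 samples received DMSO, the solvent (I/R+DMSO), and 4 received ginsenoside Rk2, a compound of red ginseng, at 20 µM (I/R+Rk2). Cells without OGD/R were not analysed here, so every value below compares Rk2 with its solvent and says nothing of OGD/R itself. The labels do not say whether the 4 samples of a group were separate cultures, and the p-values measure only the spread between them, which may be technical. Total counts ran from 18428485 to 21447045 in the I/R+DMSO libraries and from 16374082 to 30310479 in the I/R+Rk2 libraries.

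p53 is a transcription factor that is held low by MDM2, a ubiquitin ligase and itself a p53 target, and by the MDM2 relative MDM4. When DNA is damaged or the cell is stressed, p53 is released and switches on genes that stop the cell cycle, repair DNA, alter metabolism or start apoptosis. Many of these genes also answer to other factors: CDKN1B and GADD45A are known targets of FOXO factors, and stress through ATF4 can raise several growth arrest genes.

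Rk2 raised 3 of the 9 genes. TP53INP1 rose by 2.49-fold, BTG2 by 1.69-fold and CDKN1B by 1.18-fold. The best known targets of p53 did not pass the test: CDKN1A stood at a fold change of 0.988 and MDM2 at 1.18. No member fell. The test was edgeR's quasi-likelihood test over 12910 genes with Benjamini-Hochberg adjustment, at an adjusted p below 0.05, and 11% of all genes tested were higher by this rule and 7.24% lower. With a fold change above 1.5 as well, TP53INP1 and BTG2 remained, beside 2.46% of all genes. The 3 genes called were also those whose 4 I/R+Rk2 libraries all lay above the 4 I/R+DMSO libraries in CPM (counts scaled to library size), which 15.4% of all genes did, and 12.9% lay the other way round. The count of 0 lower members was also 0 at an unadjusted p below 0.05, and 0 by DESeq2, by limma's voom and by limma on FPKM. The median log2 fold change was 0.24 over the 9 members and -0.002 over all genes tested.

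**Figure D1:**
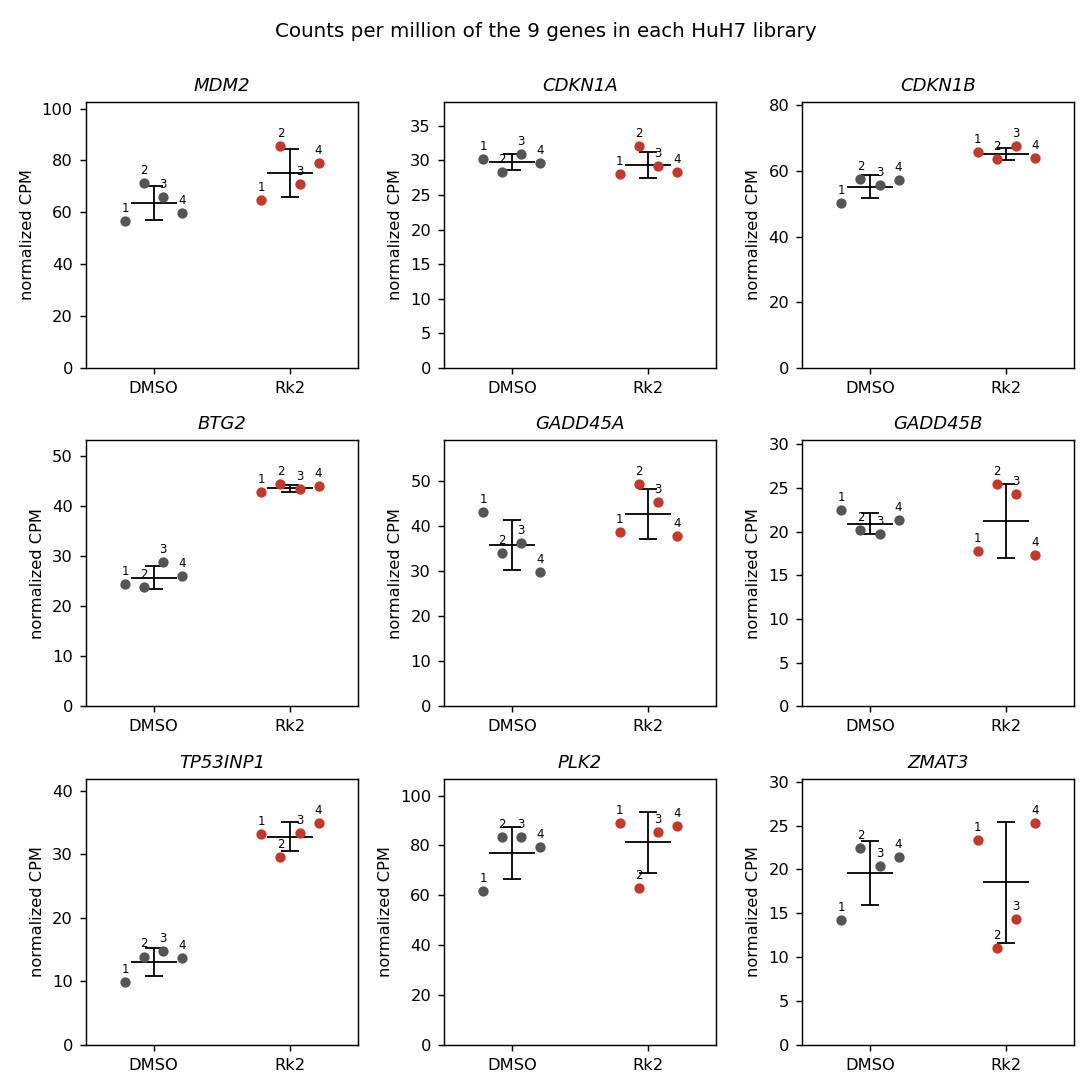
Normalized CPM (y axis, from 0) of each of the 9 genes in the 4 I/R+DMSO (grey) and 4 I/R+Rk2 (red) libraries, numbered by replicate, with bars at the mean and SD. TP53INP1, BTG2 and CDKN1B show groups that do not overlap, and GADD45B and ZMAT3 show I/R+Rk2 libraries at 2 separate levels.

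Libraries differed in how they counted long transcripts. In I/R+DMSO replicate 1 these were counted least, with a Spearman rho between transcript length and deviation from the mean library of -0.497 across genes, against -0.184 to -0.0019 in the other I/R+DMSO libraries and 0.213 to 0.387 in the I/R+Rk2 libraries. The log2 fold change of the 12754 genes with a length rose with length (Spearman rho 0.391 over genes, none of them an independent replicate). The lengths derived from the files put TP53INP1 at 6746 bases and ZMAT3 at 9166, at the 90.4 and 96.4 percentiles, while BTG2 (3244 bases) and CDKN1B (2962 bases) lay near the middle. With the length trend removed from every library, the log2 fold change was 1.15 for TP53INP1, 0.71 for BTG2 and 0.21 for CDKN1B, and all 3 were still called. Without I/R+DMSO replicate 1 these values were 1.21, 0.74 and 0.20, and all 3 were again called.

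Cell identity was read from markers. The 14 hepatocyte and hepatoma genes were all counted, led by AFP at 5940 CPM in both groups and ALB at 2290 CPM in I/R+DMSO and 2310 in I/R+Rk2. Their summed level ran from 14580 to 15850 CPM in I/R+DMSO and from 14780 to 15040 in I/R+Rk2. APOB, an apolipoprotein, rose among them (log2 fold change 0.61, adjusted p = 0.0124), while the keratins KRT8 and KRT18 (-0.47 and -0.52, adjusted p = 0.000773 and 0.00642) and the fibrinogen chain FGB (-0.27, adjusted p = 0.0462) fell. Of the 10 markers of other cells, PTPRC and VWF were listed at 0 FPKM in every library, COL1A1 and KRT7 were below the count filter, and the 6 tested included VIM, the most abundant. VIM, an intermediate filament gene that cultured hepatoma cells also make, fell from 1830 to 1460 CPM (log2 fold change -0.32, adjusted p = 0.0156), and with it the summed level of these markers, from between 1804 and 2161 to between 1512 and 1697 CPM. The next most abundant were the epithelial gene EPCAM, at 56.2 and 59.6 CPM (adjusted p = 0.32), and the lysosomal gene CD68, at 52.4 and 49.5 CPM (adjusted p = 0.634). The part of these markers in the results below was not tested. In bulk RNA, fewer cells of a kind and less RNA per cell cannot be told apart.

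The upstream sequences of the members were examined next, since p53, ATF4 and FOXO factors bind known DNA motifs. RefSeq start-site windows of GRCh38.p14, 250 bases before and 50 after the start, were matched for 7 of the 9 members, not for GADD45A and TP53INP1. They were searched on both strands for the 10-base p53 half-site by name, for the 20-base p53 response element of 2 adjoining half-sites with at most 2 mismatches, and for TGATGNAA (the C/EBP-ATF composite element), TGACGTCA (the cAMP response element) and GTAAACA (the FOXO site). MDM2 had windows for 4 starts: the first pair held no motif, and the other pair, 7 bases apart, shared the response element at 12:68808923-68808942, which begins 94 and 101 bases before them. PLK2 held 1 half-site, at 5:58460209-58460218. The other 5 members with a window held none of the motifs. Of all 35116 windows of the same length, 0.649% held the response element, 6.63% the half-site, 3.62% TGATGNAA, 1.85% TGACGTCA and 3.42% GTAAACA. The response element joins 2 half-sites, but a match with mismatches need not hold an exact half-site, and the MDM2 window held none. A match is a description of letters and not a site at work, and the absence of a match covers these windows only. The 250 upstream bases of MDM2 (the third start, chr12:68808767-68809016, plus strand), PLK2 (chr5:58460087-58460336, minus strand), BTG2 (chr1:203305269-203305518, plus strand) and CDKN1B (chr12:12717118-12717367, plus strand) are shown 5′ to 3′, the first pair because they hold the motif (in capitals) and the second pair because these genes rose with Rk2 and hold none.
MDM2: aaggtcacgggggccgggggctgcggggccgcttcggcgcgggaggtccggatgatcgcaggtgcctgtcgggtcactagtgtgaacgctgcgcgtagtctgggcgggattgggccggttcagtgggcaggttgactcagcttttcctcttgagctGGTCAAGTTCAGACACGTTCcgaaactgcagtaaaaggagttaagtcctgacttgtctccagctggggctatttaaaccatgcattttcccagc
PLK2: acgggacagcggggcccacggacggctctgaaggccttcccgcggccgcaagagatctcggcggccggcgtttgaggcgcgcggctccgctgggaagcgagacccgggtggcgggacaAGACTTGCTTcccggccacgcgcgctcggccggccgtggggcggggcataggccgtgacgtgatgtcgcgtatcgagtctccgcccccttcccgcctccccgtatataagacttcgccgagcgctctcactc
BTG2: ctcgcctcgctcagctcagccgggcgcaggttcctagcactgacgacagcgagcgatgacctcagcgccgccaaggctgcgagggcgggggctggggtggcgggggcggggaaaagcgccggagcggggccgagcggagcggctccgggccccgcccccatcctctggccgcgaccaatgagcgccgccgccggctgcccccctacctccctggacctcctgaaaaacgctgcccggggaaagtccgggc
CDKN1B: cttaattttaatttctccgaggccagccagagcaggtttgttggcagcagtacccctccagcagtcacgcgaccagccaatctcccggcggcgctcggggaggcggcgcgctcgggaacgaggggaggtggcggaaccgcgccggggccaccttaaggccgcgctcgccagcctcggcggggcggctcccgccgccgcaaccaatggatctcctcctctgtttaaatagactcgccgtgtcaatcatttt

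MDM2, which closes the feedback loop on p53, lies at 12:68808172-68850686 (RefSeq, GRCh38.p14). Its CPM was 56.7, 71.4, 66.0 and 59.9 in I/R+DMSO replicates 1 to 4 and 64.6, 85.6, 71.0 and 79.2 in I/R+Rk2 replicates 1 to 4. The I/R+Rk2 libraries were on average higher, 75.1 ± 9.21 against 63.5 ± 6.54 CPM (SD, n = 4 each), but the groups overlapped. The log2 fold change was 0.24 (95% confidence interval 0.002 to 0.48), with an unadjusted p of 0.0485 and an adjusted p of 0.142 by edgeR. In FPKM, the authors' length-normalized measure, the I/R+DMSO libraries stood at 14.6, 17.0, 16.6 and 17.2 and the I/R+Rk2 libraries at 18.5, 21.3, 23.5 and 22. These groups did not overlap, and limma on log2(FPKM + 1) called MDM2 higher (log2 fold change 0.36, adjusted p = 0.0363). With correction for gene length the log2 fold change was 0.17 (adjusted p = 0.284), and with length and GC content 0.12 (adjusted p = 0.485). In the GENCODE v29 annotation, exons of MDM2 share bases with AC025423.2 on the same strand and of AC025423.4 and CPM, a carboxypeptidase gene, on the other, and reads there could be split between these genes.

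CDKN1A encodes p21, the inhibitor of cyclin-dependent kinases through which p53 halts the cycle in G1, and lies at 6:36676463-36687332. Its CPM was 30.2, 28.3, 30.9 and 29.7 in I/R+DMSO and 28.0, 32.1, 29.2 and 28.3 in I/R+Rk2. All 8 libraries lay close together, at 29.7 ± 1.10 and 29.4 ± 1.88 CPM (SD, n = 4 each), with full overlap of the groups. The log2 fold change was -0.02, its sign changed with the scaling used (0.01 by library size only), and its 95% interval, -0.16 to 0.12, was the shortest of the 9 genes save that of CDKN1B (adjusted p = 0.875). DINOL, a noncoding gene, overlaps an exon on the opposite strand. The genes whose CPM pattern over the 8 libraries was nearest to that of CDKN1A were LLGL2, STIP1 and LRRC41, with root mean square differences of 0.020, 0.040 and 0.041 on the log2 scale against a median of 0.159 over 10460 genes. For MDM2, IDS and MADD were among the 3 nearest genes, at 0.081 and 0.083 against a median of 0.24.

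CDKN1B encodes p27, the second inhibitor of this family, which acts on cyclin E and cyclin A complexes, and lies at 12:12717368-12722369. Its CPM was 50.1, 57.6, 55.8 and 57.3 in I/R+DMSO and 65.8, 63.5, 67.6 and 63.9 in I/R+Rk2. Every I/R+Rk2 library lay above every I/R+DMSO library, at means of 65.2 ± 1.88 against 55.2 ± 3.46 CPM (SD, n = 4 each). The rise was small, with a log2 fold change of 0.24 (95% confidence interval 0.11 to 0.37, SE 0.0554, adjusted p = 0.0218 by edgeR). The call was kept in 5 of 8 fits that each left out 1 library. It was lost without I/R+Rk2 replicate 1 (log2 fold change 0.23, adjusted p = 0.0553), replicate 3 (0.22, adjusted p = 0.0612) or replicate 4 (0.25, adjusted p = 0.0525), where the size of the rise stayed close to that with all libraries. The call was also lost in edgeR with a replicate block (0.24, adjusted p = 0.0568). CDKN1A and CDKN1B were compared within each library, where scaling plays no part. The ratio of CDKN1A to CDKN1B was 0.602, 0.491, 0.553 and 0.518 in I/R+DMSO and 0.425, 0.505, 0.432 and 0.444 in I/R+Rk2. It was lower in 3 of the 4 I/R+Rk2 libraries than in any I/R+DMSO library, a log2 difference of -0.26 (two-sided exact permutation p = 0.0571, 0.0857 adjusted over 6 ratios).

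BTG2, an antiproliferative gene that recruits the CCR4-NOT deadenylase to messenger RNA, had the smallest spread of the 9 genes among the I/R+Rk2 libraries in CPM and lies at 1:203305519-203309602. Its CPM was 24.4, 23.8, 28.9 and 26 in I/R+DMSO and 42.8, 44.4, 43.5 and 44.0 in I/R+Rk2. The 4 I/R+Rk2 libraries spanned less than 2 CPM, and the lowest of them was far above the highest I/R+DMSO library. Means were 25.8 ± 2.27 and 43.7 ± 0.683 CPM (SD, n = 4 each), with a log2 fold change of 0.76 (95% confidence interval 0.61 to 0.91, SE 0.0676, adjusted p = 0.000556 by edgeR), and BTG2 was number 61 of all 12910 genes by p. Its relative BTG1, also a target of p53, stood at 91.5 ± 5.15 and 93.6 ± 1.49 CPM (adjusted p = 0.67). Set against BTG1 within each library, BTG2 was 0.270, 0.268, 0.291 and 0.296 in I/R+DMSO and 0.466, 0.466, 0.468 and 0.466 in I/R+Rk2. The log2 ratio was 0.73 higher in I/R+Rk2, with an exact permutation p of 0.0286, the smallest that 4 against 4 libraries can give, and 0.0857 after adjustment.

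TP53INP1, a nuclear and autophagosomal protein that promotes arrest, apoptosis and autophagy, showed the widest change of the 9 genes and lies at 8:94925972-94949378. Its CPM was 9.88, 13.9, 14.8 and 13.7 in I/R+DMSO and 33.1, 29.5, 33.3 and 34.9 in I/R+Rk2. Even the lowest I/R+Rk2 library, replicate 2, stood far above the highest I/R+DMSO library, replicate 3. The means were 13.1 ± 2.2 and 32.7 ± 2.29 CPM (SD, n = 4 each), for a log2 fold change of 1.32 (95% confidence interval 1.03 to 1.61, SE 0.125, adjusted p = 0.000699 by edgeR), rank 82 by p. I/R+DMSO replicate 1, the library with fewer long transcripts, was the lowest of all 8 for this gene. TP53INP2, its autophagy-linked relative, rose as well, from 30.9 ± 2.26 to 44.2 ± 2.03 CPM (log2 fold change 0.52, adjusted p = 0.00238). Within each library, the ratio of TP53INP1 to TP53INP2 was 0.355, 0.444, 0.445 and 0.441 in I/R+DMSO and 0.795, 0.652, 0.719 and 0.797 in I/R+Rk2, without overlap. This log2 ratio was 0.82 higher in I/R+Rk2 (exact permutation p = 0.0286, the smallest possible, 0.0857 adjusted).

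**Figure D2:**
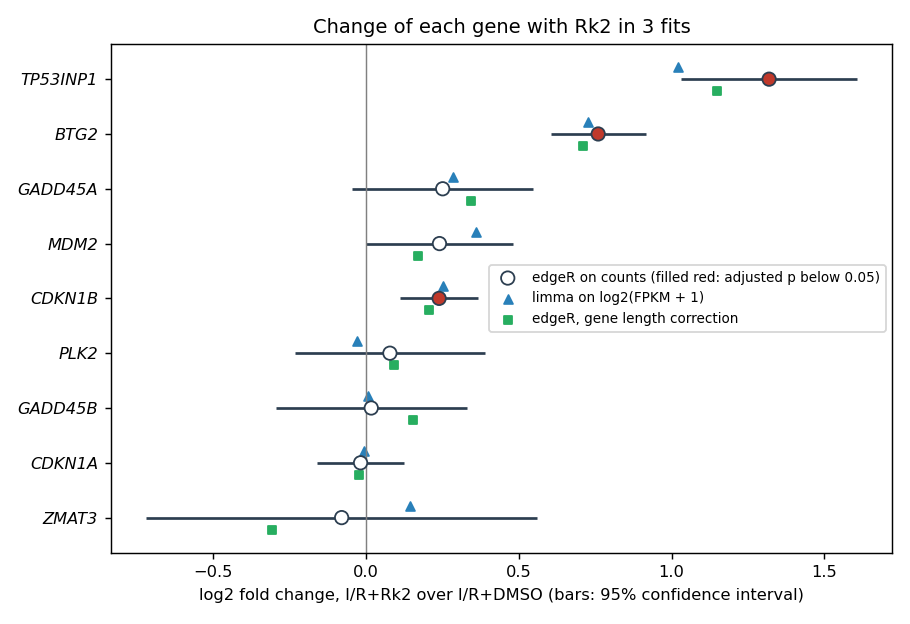
Log2 fold change (x axis) of the 9 genes (y axis) in I/R+Rk2 over I/R+DMSO, with circles and 95% confidence intervals from edgeR (red when called), triangles from limma on log2(FPKM + 1) and squares from edgeR after a gene length correction. TP53INP1 and BTG2 are far from 0 in all 3 fits, CDKN1B is at 0.24 with a short interval, and ZMAT3 has the widest interval and changes sign between fits.

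GADD45A and GADD45B encode small stress sensors that bind PCNA, p21 and the kinase MTK1, and the first is the classical p53 target of the pair. GADD45A (1:67685201-67688334) stood at 43.2, 34.0, 36.3 and 29.9 CPM in I/R+DMSO and 38.6, 49.2, 45.3 and 37.7 in I/R+Rk2. Its groups overlapped, and the log2 fold change of 0.25 had a 95% interval of -0.04 to 0.55 (adjusted p = 0.209). After correction for gene length and GC content, an alternative chosen after seeing the data, it was called higher, with a log2 fold change of 0.38 and an adjusted p of 0.0441. Its lowest values were 0.17 without I/R+DMSO replicate 4 (adjusted p = 0.366) and 0.18 without I/R+Rk2 replicate 2 (adjusted p = 0.399). GADD45B (19:2476127-2478257) stood at 22.5, 20.2, 19.7 and 21.3 CPM in I/R+DMSO and 17.8, 25.4, 24.3 and 17.3 in I/R+Rk2. I/R+Rk2 replicates 2 and 3 were above all I/R+DMSO libraries and replicates 1 and 4 below them, so that the means were alike (20.9 ± 1.25 and 21.2 ± 4.24 CPM) while the spread was not. Its log2 fold change was 0.02 (95% interval -0.30 to 0.33, adjusted p = 0.944) and turned to -0.01 under upper-quartile scaling, while it was 0.15 with correction for length and 0.22 with length and GC content. The ratio of GADD45A to GADD45B was 1.92, 1.69, 1.85 and 1.40 in I/R+DMSO and 2.16, 1.94, 1.86 and 2.18 in I/R+Rk2. It differed by 0.26 on the log2 scale (exact permutation p = 0.0571, 0.0857 adjusted), and by 0.16 to 0.31 with 1 library left out at a time.

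PLK2, a polo-like kinase of the G1 phase and of centriole duplication, lies at 5:58453982-58460086. It stood at 61.7, 83.3, 83.4 and 79.4 CPM in I/R+DMSO and 89.0, 63.1, 85.2 and 87.7 in I/R+Rk2, with 1 low library in each group. For PLK2 the log2 fold change was 0.08 (95% interval -0.23 to 0.39, adjusted p = 0.723) and became -0.01 without I/R+DMSO replicate 1. In FPKM, PLK2 stood at 37.0, 35.3, 35.3 and 33.5 in I/R+DMSO and 34.0, 33.6, 35.9 and 34.7 in I/R+Rk2. I/R+DMSO replicate 1, the lowest of its group in CPM, was the highest in FPKM, while I/R+Rk2 replicate 2 was the lowest of its group in both, by a small margin in FPKM. The within-library ratio of PLK2 to PLK3, a stress kinase of the same family, differed by 0.16 on the log2 scale (exact permutation p = 0.457, 0.549 adjusted). This difference ran from 0.01 to 0.33 with 1 library left out at a time.

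ZMAT3, a zinc finger protein that binds RNA and acts in splicing and growth suppression by p53, lies at 3:179017223-179072513. It stood at 14.2, 22.4, 20.4 and 21.4 CPM in I/R+DMSO and 23.4, 11.1, 14.3 and 25.3 in I/R+Rk2. I/R+Rk2 replicates 1 and 4 were high and replicates 2 and 3 low, the reverse of the order seen for GADD45B. The log2 fold change was -0.08, with the widest interval of the 9 genes, -0.72 to 0.56 (adjusted p = 0.87), and it was 0.15 by limma on log2(FPKM + 1), -0.30 with correction for length and -0.40 with length and GC content. In FPKM the same libraries of I/R+Rk2 were high and low, at 2.59, 1.62, 1.74 and 2.78, against 1.71, 1.97, 1.80 and 1.89 in I/R+DMSO. In counts, the 95% intervals of GADD45A, GADD45B, PLK2 and ZMAT3 all included 0 as well as the log2 fold change of CDKN1B, 0.24.

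Levels between genes were compared per length, in FPKM. In I/R+DMSO the order by mean was PLK2 (35.3), GADD45A (24.2), GADD45B (21), CDKN1B (18.4), MDM2 (16.4), CDKN1A (11.5), BTG2 (7.85), TP53INP1 (1.92) and ZMAT3 (1.84). The ranges of the 4 libraries overlapped between GADD45A and GADD45B, between GADD45B and CDKN1B, and between TP53INP1 and ZMAT3, so these neighbours were not separated. In I/R+Rk2 the order was PLK2 (34.5), GADD45A (29.6), CDKN1B (22.1), GADD45B (21.4), MDM2 (21.3), BTG2 (13.6), CDKN1A (11.4), TP53INP1 (4.90) and ZMAT3 (2.18). Here CDKN1B, GADD45B and MDM2 overlapped in turn. BTG2, below CDKN1A with no overlap in I/R+DMSO, lay above it with no overlap in I/R+Rk2. TP53INP1, level with ZMAT3 in I/R+DMSO, lay above it in every I/R+Rk2 library.

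**Figure D3:**
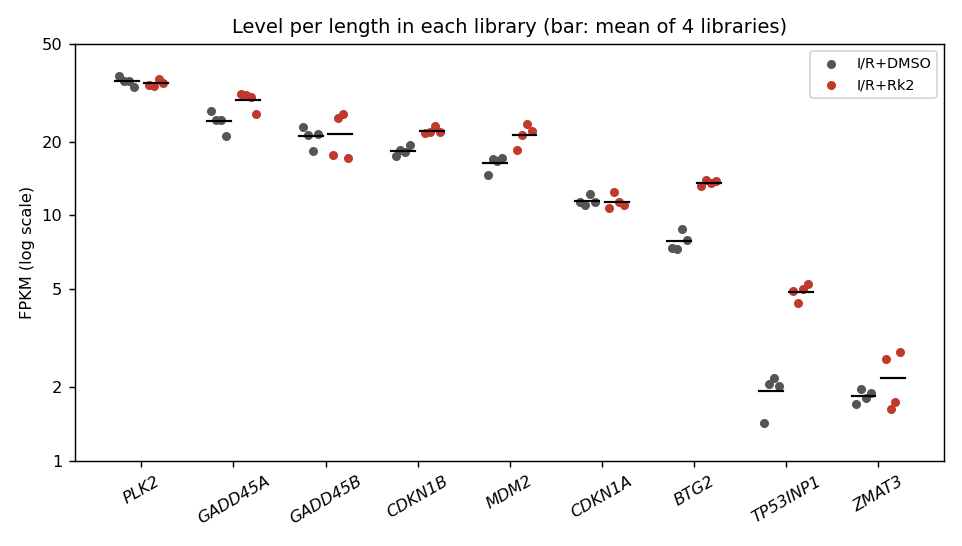
FPKM (y axis, log scale) of the 9 genes in each I/R+DMSO (grey) and I/R+Rk2 (red) library, ordered by their mean in I/R+DMSO, with a bar at the mean of 4 libraries. BTG2 passes CDKN1A in I/R+Rk2, with means of 13.6 and 11.4 FPKM, and TP53INP1 parts from ZMAT3.

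MDM4, the partner of MDM2 in holding p53 down, lies at 1:204516406-204558120 and had 18.8, 16.6, 2.26 and 9.71 CPM in I/R+DMSO and 2.33, 26.1, 24.9 and 4.60 in I/R+Rk2, a spread of over 10-fold within I/R+Rk2 that its FPKM, from 1.18 to 3.26 over all libraries, did not show. Neither its fold change (adjusted p = 0.854) nor the ratio of MDM2 to MDM4 (log2 difference 0.23 in CPM and -0.10 in FPKM, exact permutation p = 0.943 and 0.80) differed between groups beyond that spread. With 1 library left out at a time, the CPM difference of this ratio ran from -0.35 to 0.92. The cause of these MDM4 levels was not tested.

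How far counts and FPKM followed each other was therefore measured for each gene, as the SD over the 8 libraries of the log2 ratio of CPM to FPKM. It was 0.022 for BTG2 and TP53INP1, 0.023 for CDKN1A and 0.041 for CDKN1B, against a median of 0.114 over genes. It was 0.061 for GADD45B, 0.126 for GADD45A, 0.153 for MDM2, 0.224 for PLK2 and 0.266 for ZMAT3, and reached 1.331 for MDM4, at the 99.9 percentile of genes. The 3 members called higher were thus among the genes on which both measures were nearly proportional.

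**Figure D4:**
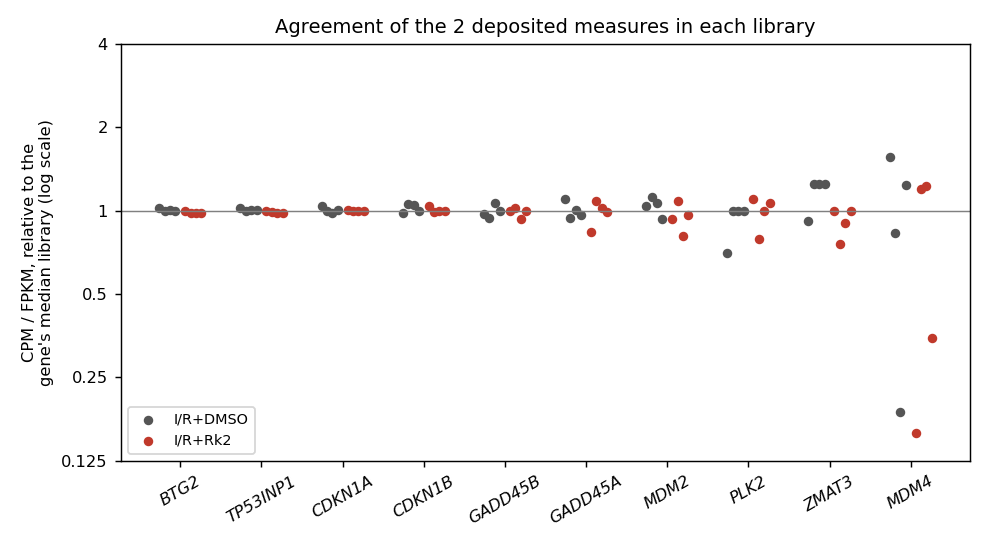
Ratio of CPM to FPKM in each library relative to the gene's median library (y axis, log scale) for the 9 genes and MDM4, in I/R+DMSO (grey) and I/R+Rk2 (red), ordered by the SD of the log2 ratio. BTG2, TP53INP1, CDKN1A and CDKN1B stay near 1, PLK2 falls to 0.704 and 0.793 in 1 library of each group, and MDM4 falls to 0.158.

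Other genes of the pathway were read from lists. Each count with all libraries is to be set against the 11% of all genes tested that rose and the 7.24% that fell. Other targets of p53 made a list of 52 genes, of which 44 could be tested. Rk2 raised 10 and lowered 4 of them, and 30 did not pass the test, with a median log2 fold change of 0.02. These counts changed when 1 library was left out: 6 rose without solvent (I/R+DMSO) replicate 2 or Rk2 replicate 1 or 2, and 5 without Rk2 replicate 3. Higher calls over all genes also fell in these fits, from 1417 to 1003, 1042, 950 and 977 in that order. Lower calls numbered 2 after removal of solvent replicate 2 or 3 and likewise of Rk2 replicate 1 or 4, and 1 after removal of Rk2 replicate 2 or 3. Lower calls over all genes fell there too, from 935 to 591, 573, 622, 430, 517 and 533 in that order. Of 11 apoptosis genes tested, 3 rose: PMAIP1, which encodes the BH3-only protein NOXA (log2 fold change 0.40, adjusted p = 0.00296), BBC3, which encodes its relative PUMA (0.44, adjusted p = 0.0346), and the death receptor TNFRSF10B (0.14, adjusted p = 0.0361). None fell by edgeR, DESeq2, voom or limma, and 1 was lower at an unadjusted p below 0.05. BAX, the pore-forming effector, stood at -0.16 (adjusted p = 0.237). FAS was almost silent, with at most 6 counts in any library.

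Repair and arrest targets moved both ways, 3 of 15 up and 3 down. RRM2B, a ribonucleotide reductase subunit (0.36, adjusted p = 0.00734), CCNG1, cyclin G1 (0.42, adjusted p = 0.0194), and the ubiquitin ligase part FBXO22 (0.26, adjusted p = 0.021) rose. PCNA, the replication clamp (-0.29, adjusted p = 0.0142), RPS27L, a ribosomal protein (-0.25, adjusted p = 0.0246), and TRIAP1, an apoptosis inhibitor (-0.22, adjusted p = 0.0455), fell. Of 18 targets in metabolism, autophagy and secretion, 4 rose and 1 fell. By limma on log2(FPKM + 1) none of the 3 risers among the repair and arrest genes was called, while DESeq2 and voom each called 3 higher. SESN2, the sestrin that restrains mTORC1, matched TP53INP1 in size, rising from 33.2 ± 1.44 to 83.1 ± 6.95 CPM (log2 fold change 1.32, adjusted p = 5.2e-05), while its relative SESN1 stood at 10.1 CPM in both groups. GDF15, a secreted stress cytokine, rose from 319 ± 34.3 to 517 ± 23.9 CPM (0.70, adjusted p = 0.00133). DRAM1, a lysosomal autophagy gene (0.26, adjusted p = 0.00664), and the lipase ABHD4 (0.20, adjusted p = 0.0475) rose less, and FDXR, ferredoxin reductase, fell (-0.48, adjusted p = 0.0479). With correction for gene length, 3 targets in metabolism, autophagy and secretion were called higher and 0 lower, so FDXR was not called.

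Among regulators and relatives of p53, 2 of 14 tested rose, the kinases ATM (0.97, adjusted p = 0.0202) and ATR (0.45, adjusted p = 0.0218) that signal DNA damage, a share near that of all genes (11%). In FPKM, ATM stood at 2.91 ± 0.361 in I/R+DMSO and 6 ± 1.5 in I/R+Rk2. ATR stood at 4.18 ± 1.61 and 5.07 ± 1.01 FPKM, and its groups overlapped. Limma on log2(FPKM + 1) called 1 regulator higher. The count by edgeR was 1 without replicate 2 of either group, and 0 after removal of solvent replicate 3, Rk2 replicate 3 or Rk2 replicate 4. Over all genes, higher calls in these fits were 1003 (solvent) and 950 (Rk2), then 1023, 977 and 863, against 1417 with all libraries. No regulator fell by edgeR, DESeq2, voom or limma, with 1 lower at an unadjusted p below 0.05. Of 15 genes akin to the members by sequence or by function, called relatives here, 2 rose and 2 fell, again near the shares of all genes (11% and 7.24%). The INK4 inhibitors among them share a function with CDKN1A and CDKN1B and not a sequence family. TP53INP2 and CDKN2B, the INK4 inhibitor p15 (0.19, adjusted p = 0.0191), rose, and CDKN2C, the INK4 inhibitor p18 (-0.62, adjusted p = 0.0317), and PLK1, the mitotic polo-like kinase (-0.26, adjusted p = 0.0297), fell. Rises of relatives numbered 1 after removal of solvent replicate 2 and likewise of Rk2 replicate 1, 3 or 4, where all genes gave 863 to 1042 rises. Falls of relatives numbered 1 after removal of any single solvent library or of Rk2 replicate 1, and 0 after removal of Rk2 replicate 2, 3 or 4. All genes gave 573 to 885 falls in the former fits and 430 to 533 in the latter, against 935 with all libraries.

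Genes that the members act on in the cell cycle were read from lists as well. Of 17 genes of the G1 machinery tested, 2 rose, a share near the 11% of all genes, and 4 fell. CDK6, a partner of D-type cyclins (0.33, adjusted p = 0.00547), and RB1, the retinoblastoma protein (0.46, adjusted p = 0.0131), rose. The cyclins CCNE1 (-0.45, adjusted p = 0.012) and CCND1 (-0.21, adjusted p = 0.0187), the factor E2F2 (-0.42, adjusted p = 0.0203) and the phosphatase CDC25A (-0.21, adjusted p = 0.0204) fell. The fallers numbered 2 without I/R+Rk2 replicate 2 and 1 without I/R+Rk2 replicate 3 or 4. Over all genes, lower calls fell as well in these fits, from 935 to 517, 533 and 430. Of 20 genes of G2 and mitosis that the DREAM complex represses, 7 fell and 13 were not called, with a median log2 fold change of -0.10. None rose by edgeR, while 2 were higher at an unadjusted p below 0.05 and DESeq2 called 1, and edgeR called 2 higher without I/R+DMSO replicate 4. The cyclins CCNA2 (-0.34, adjusted p = 0.00214) and CCNB1 (-0.29, adjusted p = 0.00441) and the anaphase activator CDC20 (-0.32, adjusted p = 0.00412) were among those that fell. BIRC5, which encodes survivin, fell from 49.6 ± 1.77 to 25.8 ± 1.21 CPM (log2 fold change -0.94, adjusted p = 6.7e-05), but from 30.7 to only 26.9 in FPKM. Limma on log2(FPKM + 1), which changes the measure, the test and the filter together and called fewer genes lower in all (309 against 935), called 3 of the 20 lower.

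Other factors known to drive some of these genes were listed for comparison. In the ATF4 pathway 7 of 8 genes rose, with a median log2 fold change of 0.83. Lowest by adjusted p, though not all largest by fold change, were ASNS, asparagine synthetase (1.00, adjusted p = 5e-06), CHAC1, which degrades glutathione (1.75, adjusted p = 0.000109), CEBPB (0.65, adjusted p = 0.00017) and ATF4 itself (0.43, adjusted p = 0.00185). Among FOXO factors and targets 6 of 11 rose, with a median of 0.41, including the cyclin CCNG2 (0.84, adjusted p = 0.00151), the insulin receptor substrate IRS2 (0.60, adjusted p = 0.00168), FOXO3 (0.56, adjusted p = 0.00604) and the repressor BCL6 (0.41, adjusted p = 0.0113). No gene of either list fell by edgeR, DESeq2, voom or limma, or at an unadjusted p below 0.05.

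**Figure D5:**
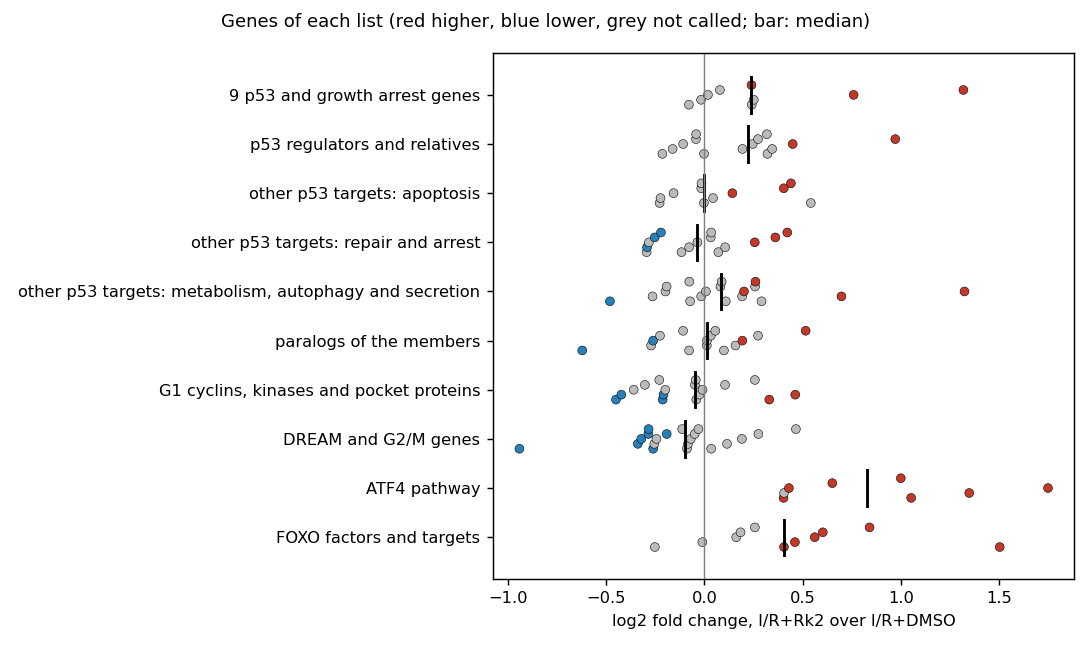
Log2 fold change (x axis) of every tested gene in the 9 members and the listed gene groups (y axis), red when called higher, blue when called lower and grey when not called, with a bar at the median. The medians are 0.24 for the members, 0.83 for the ATF4 pathway, 0.41 for FOXO genes and -0.10 for DREAM and G2/M genes.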

How the data were processed

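RNA-seq of 8 HuH7 samples was analysed, 4 I/R+DMSO and 4 I/R+Rk2, grouped by their labels. The authors prepared libraries from 250 ng of RNA. The submitters' notes name FastQC 0.11.5, HISAT2 2.2.1, StringTie 1.3.3 and hg38, and the read counter and annotation are not given in the sources used here. The authors deposited raw counts, without normalization, for 15767 genes and FPKM, scaled by the authors for length and depth, for 19799.

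The members and gene lists, compiled by hand, were chosen with earlier results of these data known. Named genes were all members, MDM4, and the called genes of each list, at most 4 in each direction by adjusted p, with the 3 genes of at least 5 CPM nearest in pattern to MDM2 and CDKN1A; some genes that this rule includes are not reported here. BAX, FAS, SESN1, BTG1 and the marker genes described by level fall outside this rule and were chosen after their values were seen. In the count table, 20 symbols had become dates and were left out (0.111% of counts). Genes reaching 10 counts in 4 or more libraries, 12910 in all (99.85% of counts), were fitted in edgeR 4.0.16 (R 4.3.3) with TMM scaling and robust quasi-likelihood tests, condition being the only term. CPM are TMM-scaled. Paralog ratios were tested by two-sided exact permutation over libraries (SciPy 1.17.1) and adjusted over 6.

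Alternatives were DESeq2 1.42.0, limma 3.58.1 (voom with sample weights, or log2(FPKM + 1) and log2(FPKM + 0.1) for a mean FPKM of at least 0.5 or unfiltered), other scalings and filters, a replicate block, leaving out each library, and loess corrections (span 0.5) for length and, chosen after seeing the data, length with GC. Simulated data with 12910 genes, all drawn at the same coefficient of variation (17.1%), gave 28 of 100 calls at 1.5-fold, 87 of 100 at 2-fold and 4 false calls.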

Additional observations from a re-analysis of the deposited data

Results flagged for a closer look

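A library was held to stand apart when its gap to the nearest other library of its group exceeded Dixon's 95% value. Among 44 groups of 4 libraries tested, 2 had such a library, and chance gives about 1 in 20. PLK2 was lowest in I/R+Rk2 replicate 2, at 63.1 CPM, while the other 3 libraries of the group lay between 85.2 and 89.0 CPM and its FPKM there, 33.6, was also the lowest of the group, next to 34.0, 34.7 and 35.9. CDKN1B was highest in I/R+Rk2 replicate 3, at 23.1 FPKM, against 21.6 to 21.8 in the other 3. The cause was not tested for either.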

How the results depend on the processing

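TP53INP1 and BTG2 were called higher under every alternative run, with log2 fold changes of 1.02 to 1.38 and 0.71 to 0.82 and highest adjusted p of 0.0101 and 0.00982. CDKN1B ran from 0.20 to 0.27 (adjusted p 0.00224 to 0.0612). The number of members called higher was 2 to 4, without a library 2 to 3, and none was called lower. The cause of the changes listed here was not tested.

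No pairing by replicate number was seen: the correlation of deviations between samples of the same number was 0.016, -0.01, 0.038 and 0.085. Between samples of different numbers it ran from -0.148 to 0.077. So few samples cannot exclude a pairing, and the labels do not state one. With a replicate block, 2 members were called higher (CDKN1B 0.24, adjusted p = 0.0568), MDM4 turned to -0.07, and the block left 0 relatives of the members lower, 1 G1 gene lower and 1 G2/M gene higher.

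Signs of uncalled members also changed. CDKN1A was 0.01 by library size only and 0.04 with length and GC correction, and -0.06 to 0.01 without a library. GADD45B was -0.01 under upper-quartile scaling, 0.15 with length correction, 0.22 with length and GC correction and -0.08 to 0.10 without a library. PLK2 was -0.03 by limma on FPKM, -0.01 by voom and -0.01 to 0.18 without a library. ZMAT3 was 0.15 or 0.20 by limma on FPKM, -0.30 with length correction, -0.40 with length and GC correction and -0.26 to 0.10 without a library, MDM4 -0.19 to 0.64 without a library, and the FPKM ratio of MDM2 to MDM4 -0.10.

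Of all genes, 1417 were higher and 935 lower. DESeq2 gave 1687 and 1298, upper-quartile scaling 1246 and 1306, library size only 1642 and 683, length correction 1050 and 1291, and limma on log2(FPKM + 1) 812 and 309. By limma on FPKM with any pseudocount or filter, other p53 targets counted 5 higher and 2 lower (1 lower unfiltered), regulators 1 higher, relatives 0 lower, G1 genes 1 lower and G2/M genes 3 lower. With a fold change above 1.5 the counts were 2 other targets higher and 0 lower, 1 regulator higher, 0 relatives higher and 1 lower, 0 G1 genes higher and 0 lower, 1 G2/M gene lower and 3 FOXO genes higher. Other targets lower numbered 2 by library size only or without the count filter. Relatives lower numbered 1 by DESeq2, library size only or at least 50 counts in every library. With length correction, relatives counted 1 higher and 1 lower and G1 genes 1 higher, and with length and GC correction relatives 1 higher and 0 lower, G1 genes 1 higher and regulators 1 higher. DESeq2 called 1 G2/M gene higher. Without a library the ranges were 5 to 9 other targets higher, 1 to 3 lower, 0 to 2 regulators higher, 1 to 2 relatives higher, 0 to 1 lower, 1 to 4 G1 genes lower and 0 to 2 G2/M genes higher. Over all genes, these fits gave 863 to 1418 higher and 430 to 885 lower.

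The self-test and the biological coefficient of variation of 17.1% limit small changes: many genes with a true 1.5-fold change would be missed.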
